A study of Homo sapiens with 6 samples.

Results

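The mRNAs described here encode 10 proteins of the presynaptic active zone and of the vesicle release machinery that works there: *PCLO*, *BSN*, *RIMS1*, *RIMS2*, *ERC1*, *ERC2*, *UNC13A*, *SYN1*, *SNAP25* and *STX1A*. They were taken by gene name from the 60655 genes of the deposited count table. *PCLO* and *BSN* were chosen by their difference between the IPs of these same libraries, which put them on the study's list of enriched RNAs, and the other 8 were placed beside them for their function, with earlier results of the libraries known. The comparison of the IPs is therefore given for the 10 genes as a description, without a test. Where a member is said to be past the call thresholds, this describes the fit over all genes and supports nothing about the member. The data are RNA immunoprecipitation sequencing (RIP-seq) of untreated, wild-type WaGa cells, an established line of Merkel cell carcinoma (MCC) that carries Merkel cell polyomavirus. RNA that came down with an IGF2BP3 antibody was compared with RNA that came down with a control IgG antibody, in 3 libraries each. The labels call the IGF2BP3 libraries IMP3, another name for this RNA-binding protein. The series calls the replicates independent, but the sources used here do not say whether they came from separate cultures, so errors measure the spread between these libraries. No library of input RNA was analysed here, so a level in the IgG IP is the background of the IP and not the amount of an mRNA in the cell.

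The active zone is the patch of presynaptic membrane where synaptic vesicles dock, are primed and fuse when calcium enters. Piccolo (*PCLO*) and bassoon (*BSN*) are giant, related scaffold proteins that span it, RIM proteins (*RIMS1*, *RIMS2*) tie vesicles to calcium channels, and ELKS proteins (*ERC1*, *ERC2*) link the scaffold together. Munc13-1 (*UNC13A*) primes vesicles, synapsin I (*SYN1*) holds them in reserve, and SNAP-25 and syntaxin-1A (*SNAP25*, *STX1A*) are the plasma membrane SNAREs that drive fusion. MCC is a neuroendocrine carcinoma whose cells carry secretory granules, and the same SNAREs serve granule release in neuroendocrine cells. IGF2BP3 binds mRNA and influences its stability and translation.

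Libraries held between 9758759 and 14886414 counts on genes. Replicate 1 stood apart in both groups. Counts of replicate 1 differed from those of replicates 2 and 3 of its group with a chi-square of 18.2 to 21.9 times its degrees of freedom, and those of replicates 2 and 3 from each other with 2.20 and 3.25 times. Of the 9 MCC markers, 9 had at least 1 TPM (a transcript level normalized for length and library size) in every library, among them *CHGA*, *KRT20* and *ATOH1*, and their summed TPM were 1731 to 2710 in the IgG IP and 2020 to 2782 in the IGF2BP3 IP. Of the markers of other cell types, the leukocyte, glial and keratinocyte lists stayed at or below a summed TPM of 1.33 in every library. The fibroblast list summed to 29.2 to 54.1 TPM, nearly all from *DCN*, with *COL1A1* at 0 to 0.32 TPM. Of the 3 neuron markers, *NEFL* and *NEFM* were at 40.1 TPM or more and *RBFOX3* at 1.65 TPM or less.

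The transcripts of the scaffold genes are long. The canonical transcript of *PCLO* (GENCODE version 44, GRCh38) has 20284 bases, of which 15426 are coding, and is longer than 99.8% of those of the tested genes. That of *BSN* has 15971 bases, 11778 of them coding, and is longer than 99.4%. To show the letters that an RNA-binding protein meets in these mRNAs, the 60-base coding stretch with the most matches to TGGAC or ACACA is printed for *PCLO* and *BSN*, and for *SNAP25* as the member on the other side of the comparison. TGGAC is the DNA spelling of the m6A consensus that IGF2BP proteins have been reported to read, and ACACA stands for the CA-rich elements reported for them. Capitals mark the matches, which were searched on the transcript strand only, and where stretches tied the first was taken. All 3 stretches lie within 1 exon and equal the GRCh38 sequence.
PCLO, chr7:83134672-83134731, minus strand: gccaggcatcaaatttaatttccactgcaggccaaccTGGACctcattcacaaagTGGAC
BSN, chr3:49652368-49652427, plus strand: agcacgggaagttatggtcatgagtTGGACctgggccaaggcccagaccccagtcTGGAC
SNAP25, chr20:10293161-10293220, plus strand: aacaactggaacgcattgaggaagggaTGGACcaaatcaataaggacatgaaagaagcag

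The stretches of *PCLO* and *BSN* hold 2 matches and that of *SNAP25* holds 1. The coding sequence of *SNAP25* has only 618 bases, against 15426 in *PCLO* and 11778 in *BSN*. A longer coding sequence offers more stretches to choose from, so these numbers cannot be compared between the genes. Among 305707 coding stretches of the same length in the tested genes, cut end to end, 13.9% held at least 1 match and 1.39% at least 2. The printed stretches were chosen for their matches, so these shares are given only as a scale. Over whole transcripts, TGGAC occurred 0.94 times per kb in *PCLO*, 1.75 in *BSN* and 0.97 in *SNAP25*, against a median of 1.08 over the tested genes, of which 89.4% held at least 1. ACACA occurred 5.85 times per kb in *SNAP25*, more than in 99.2% of the tested genes, and 1.28 and 1.13 times in *PCLO* and *BSN*, against a median of 1.00. In *SYN1* it did not occur, while 84.2% of the transcripts held at least 1. A match in a transcript is a description of its letters and no evidence of binding.

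*PCLO* (ENSG00000186472.20, chromosome 7 from 82754012 to 83162930, minus strand, 25 exons in the canonical transcript) had 338, 434 and 373 counts in the IgG IP (replicates 1 to 3), against 656, 778 and 554 in the IGF2BP3 IP. As CPM (counts normalized for library size with TMM factors), these were 36.6, 29.1 and 30.1 in the IgG IP against 55.1, 58.8 and 45.0 in the IGF2BP3 IP. The lowest IGF2BP3 IP library lay above the highest IgG IP library. The means were 31.9 ± 4.10 (SD, n = 3) and 53.0 ± 7.11 (SD, n = 3) CPM, a 1.66-fold difference. On the log2 scale the change was 0.73 with a standard error of 0.13 and a 95% confidence interval of 0.43 to 1.04. Within same-numbered pairs the log2 difference was 0.59, 1.01 and 0.58.

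*BSN* (ENSG00000164061.5, chromosome 3 from 49554477 to 49671549, plus strand, 12 exons) was covered by fewer reads and had nearly the same fold change. Its normalized CPM were 11.4, 17.0 and 16.9 in the IgG IP, against 22.1, 26.6 and 26.8 in the IGF2BP3 IP, from 105 to 352 counts per library. The groups did not overlap, and replicate 1 was the lowest library in both. The means were 15.1 ± 3.21 (SD, n = 3) and 25.2 ± 2.67 (SD, n = 3) CPM. The log2 fold change was 0.73 with a standard error of 0.17 and a 95% confidence interval of 0.34 to 1.11, and the pairs gave 0.96, 0.65 and 0.66.

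**Figure D1:**
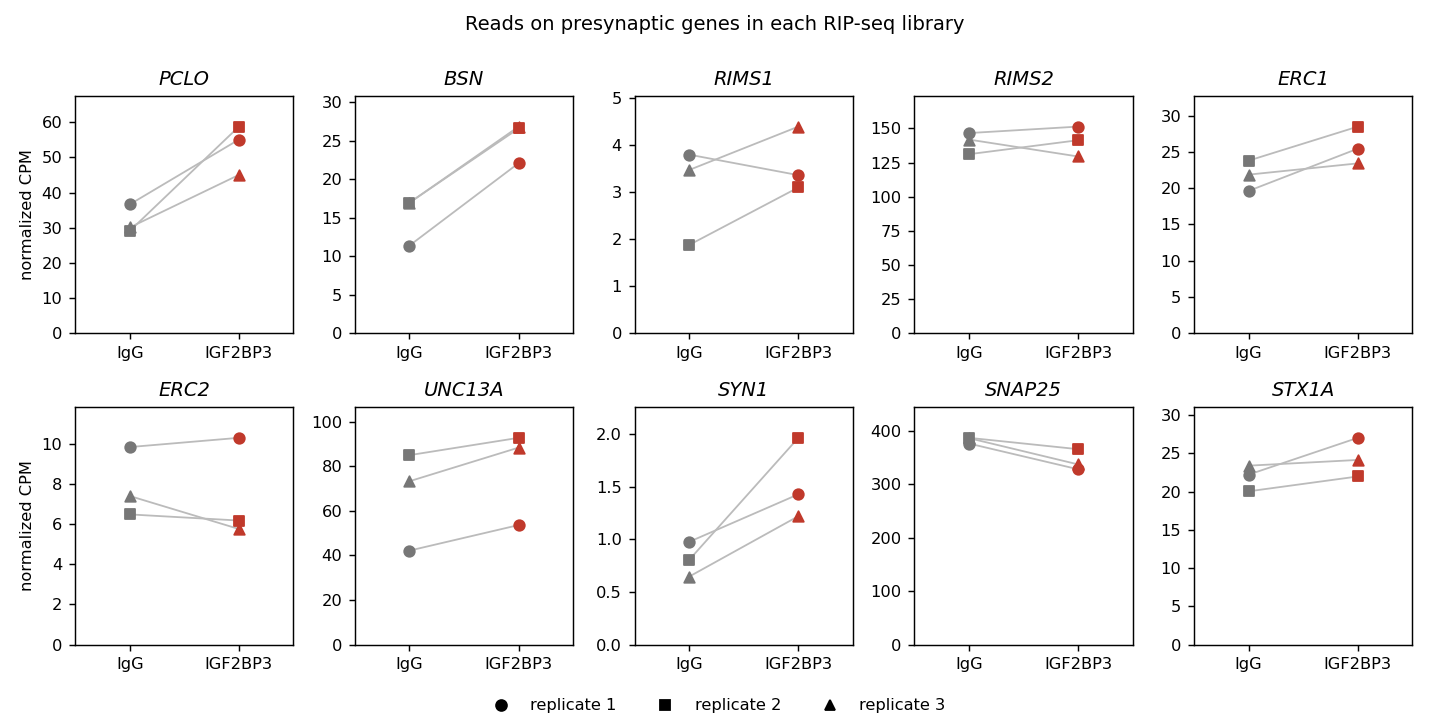
Normalized CPM of the 10 genes (linear axes from 0) in the 3 IgG IP libraries (gray) and the 3 IGF2BP3 IP libraries (red), with same-numbered replicates joined by a line. *PCLO*, *BSN* and *SYN1* have their IGF2BP3 IP libraries above those of the IgG IP, *SNAP25* has them below, and the groups overlap for the other 6 genes.

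The RIM genes, whose proteins tether vesicles near calcium channels, showed no such separation. *RIMS1* (chromosome 6 from 71886550 to 72403150, plus strand, 34 exons) had 3.79, 1.88 and 3.47 normalized CPM in the IgG IP, against 3.36, 3.10 and 4.39 in the IGF2BP3 IP, from 28 to 54 counts per library. IgG IP replicate 2 was the lowest library by a wide margin, and the groups overlapped. The log2 fold change was 0.27 with a 95% confidence interval of -0.41 to 0.96, so a 1.5-fold change (0.58 on the log2 scale) could not be told from no change in these libraries. Without IgG IP replicate 2 it was -0.0046. *RIMS2* (chromosome 8 from 103500610 to 104254430, plus strand, 30 exons) had far more reads, 1352 to 1956 counts per library. Normalized CPM of *RIMS2* were 147, 131 and 142 in the IgG IP, against 151, 141 and 129 in the IGF2BP3 IP. The groups were interleaved, and the log2 fold change of 0.01 had a 95% confidence interval of -0.19 to 0.21, which leaves out a 1.5-fold change in either direction.

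The ELKS genes lay on either side of no change. *ERC1* (chromosome 12 from 990509 to 1495933, plus strand, 19 exons) had 19.6, 23.8 and 21.9 normalized CPM in the IgG IP, against 25.4, 28.5 and 23.4 in the IGF2BP3 IP. It was higher in each same-numbered pair, by 0.37, 0.26 and 0.10 on the log2 scale, but IGF2BP3 IP replicate 3 lay below IgG IP replicate 2. Its log2 fold change was 0.24 with a 95% confidence interval of -0.05 to 0.53. *ERC2* (chromosome 3 from 55508311 to 56469095, minus strand, 18 exons) had 9.86, 6.50 and 7.42 normalized CPM in the IgG IP, against 10.3, 6.19 and 5.77 in the IGF2BP3 IP. Replicate 1 was the highest library in both groups. Its log2 fold change was -0.08 with a 95% confidence interval of -0.67 to 0.50, and its sign depended on single libraries: it was 0.10, 0.03 and 0.06 without IgG IP replicate 1, IGF2BP3 IP replicate 2 and IGF2BP3 IP replicate 3.

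*UNC13A*, whose protein primes docked vesicles (chromosome 19 from 17601336 to 17688365, minus strand, 44 exons), varied more between replicates than between antibodies. It had 42.2, 85.0 and 73.3 normalized CPM in the IgG IP, against 53.6, 92.8 and 88.4 in the IGF2BP3 IP. Replicate 1 was the low library of both groups, with a log2 difference from the mean of replicates 2 and 3 of -0.90 in the IgG IP and -0.75 in the IGF2BP3 IP, where the median tested gene was at 0.0019 and -0.02. The differences within pairs were 0.35, 0.13 and 0.27. The log2 fold change over all libraries was 0.22 with a 95% confidence interval of -0.38 to 0.82, and without IgG IP replicate 1 it was -0.01. *SYN1*, which encodes synapsin I (chromosome X from 47571901 to 47619857, minus strand, 13 exons), had the largest fold change of the 10 genes and the fewest reads. Its counts were 9, 12 and 8 in the IgG IP, against 17, 26 and 15 in the IGF2BP3 IP, or 0.98, 0.80 and 0.65 against 1.43, 1.96 and 1.22 normalized CPM. The groups did not overlap, and the log2 fold change was 0.94 with a wide 95% confidence interval of 0.13 to 1.75.

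The plasma membrane SNAREs differed little between the IPs. *SNAP25* (chromosome 20 from 10172395 to 10308258, plus strand, 8 exons) had the most counts of the members, 3475 to 5781 per library. Normalized CPM of *SNAP25* were 377, 387 and 387 in the IgG IP, against 328, 366 and 338 in the IGF2BP3 IP. It was the only member whose IGF2BP3 IP libraries all lay below those of the IgG IP. The difference was small, a log2 fold change of -0.16 with a 95% confidence interval of -0.33 to 0.02. *STX1A* (chromosome 7 from 73699206 to 73719672, minus strand, 10 exons) had 22.2, 20 and 23.4 normalized CPM in the IgG IP, against 27.03, 22 and 24.1 in the IGF2BP3 IP. The groups overlapped, and the log2 fold change was 0.16 with a 95% confidence interval of -0.13 to 0.44.

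**Figure D2:**
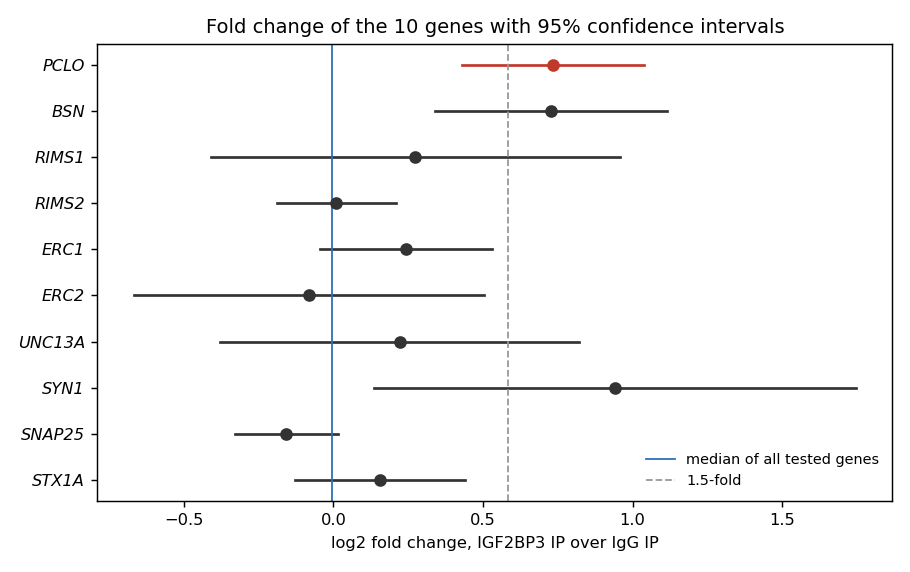
Log2 fold change of the 10 genes, IGF2BP3 IP over IgG IP (points), with 95% confidence intervals from edgeR (bars). The blue line is the median of all tested genes, -0.01, and the dashed line a 1.5-fold change, 0.58 on the log2 scale. The intervals are not adjusted for the number of genes tested and are no test of the members. Those of *PCLO*, *BSN* and *SYN1* lie above 0, but only *PCLO* (red) is past both call thresholds.

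Over all genes, 14507 passed the expression filter, among them 10 of the 10 members, and 1.16% of those tested were called higher in the IGF2BP3 IP at a fold change of at least 1.5 and an adjusted p-value under 0.05 (edgeR's quasi-likelihood test). In that fit 1 of the 10 members, *PCLO*, was past the thresholds, and 0 were called lower, where the share of all tested genes called lower was 0. All IGF2BP3 IP libraries exceeded all IgG IP libraries for 3 of the 10 (*PCLO*, *BSN* and *SYN1*) and for 12% of all tested genes. The opposite order held for 1 of the 10 (*SNAP25*) and for 8.69% of all tested genes. Within same-numbered pairs, 6 members were higher in 3 of 3 (25.1% of all tested genes) and 1 was lower in 3 of 3 (23.5%). The median log2 fold change was 0.23 over the 10 members and -0.01 over all tested genes. Since the contrast was used to choose *PCLO* and *BSN*, nothing is read from these counts.

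The calls of *PCLO* and *BSN* depended on the model, and that of *PCLO* also on single libraries. With the replicate number as a block, 2 of the 10 members, *PCLO* and *BSN*, were past the thresholds in edgeR, at log2 fold changes of 0.74 and 0.74, where 3.56% of all tested genes were called higher. Both were also past them in DESeq2 with the block, at 0.72 and 0.74 (2.91% of all genes with an adjusted p-value), and in DESeq2 without it, at 0.72 and 0.72 (2.22%). The fit without the block called 281 genes higher, and the study's list, also made with DESeq2 at these thresholds, holds 281 RNAs. That *PCLO* and *BSN* pass in this fit was therefore fixed by their choice from that list. The call of *PCLO* was lost without IGF2BP3 IP replicates 1, 2 or 3 (log2 fold changes of 0.71, 0.65 and 0.82) and without IgG IP replicates 2 or 3 (0.67 and 0.70), and held without IgG IP replicate 1 (0.84). Over all tested genes, 244, 0 and 23 were called higher without IGF2BP3 IP replicates 1, 2 and 3. Without IgG IP replicates 1, 2 and 3 these were 134, 19 and 7, against 169 with all libraries. The calls of *PCLO* and *BSN* come from the libraries by which both genes were chosen, so they describe the fits only.

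Transcript composition and length moved with the fold change across genes. Over 14479 tested genes with a canonical transcript, Spearman's correlation with the log2 fold change was 0.41 for GC content and 0.20 for length, as a description across genes that share the same 6 libraries. Transcripts under 2000 bases had a median log2 fold change of -0.06 and those of 10000 bases and over 0.13, and 2.91% of the latter were called higher against 0.425% of the former. *PCLO* is very long but poor in GC, at 42.6%, below the median of 47.7%, while *BSN* is very long and rich in GC, at 60.9%. With a correction of each library for GC content, the log2 fold change of *PCLO* was 0.77 and stayed past the thresholds, and that of *BSN* fell to 0.54, under the 1.5-fold minimum. With a correction for effective length, *PCLO* came to 0.58, just under that minimum, and *BSN* to 0.54. Neither then had an adjusted p-value under 0.05 in edgeR, nor had *BSN* with the GC correction or without any correction. With the replicate block added to the length correction, *PCLO* was at 0.59 and past the thresholds. *SYN1*, with 61.7% GC and 3210 bases, was at 0.75 and 1.01 after the GC and the length correction. *STX1A*, at 60.2% GC, changed sign with the GC correction, to -0.03.

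**Figure D3:**
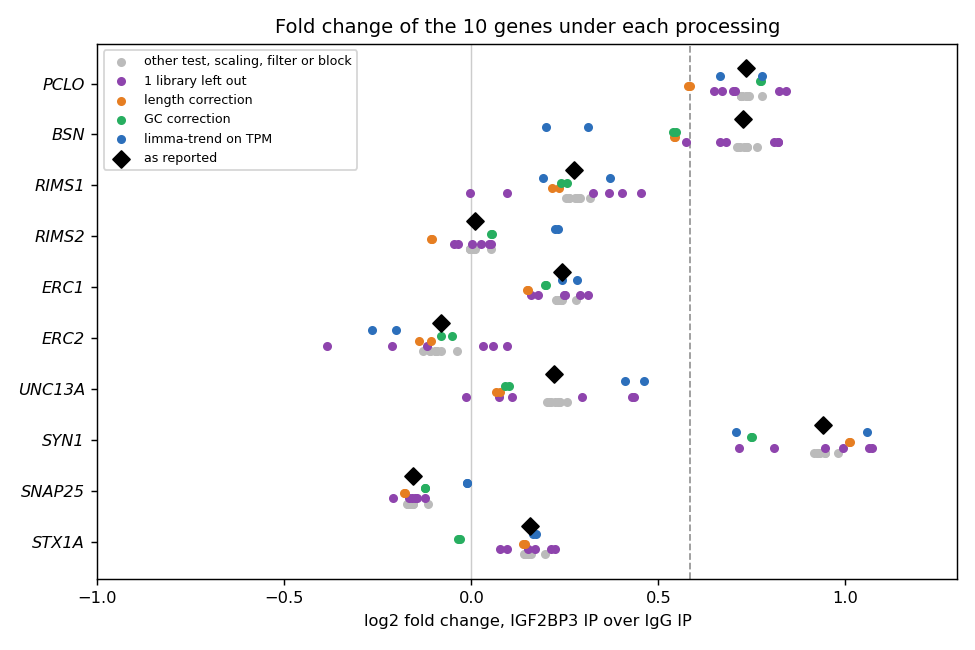
Log2 fold change of the 10 genes, IGF2BP3 IP over IgG IP, as reported (black diamonds) and under each alternative processing (points by kind); the dashed line is a 1.5-fold change. *PCLO* and *SYN1* stay between 0.58 and 1.07 throughout, *BSN* drops to between 0.20 and 0.31 on the TPM values, and *RIMS2* runs from -0.11 to 0.23.

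Levels between genes can be compared only per transcript length, for which the deposited TPM values were used. In the IgG IP *SNAP25* was highest, with 169, 247 and 252 TPM, followed by *RIMS2* with 21.3, 27.99 and 28.3 and *STX1A* with 14.3, 14.3 and 18.3. The ranges of these 3 did not overlap each other, and that of *STX1A* lay above the next gene, *UNC13A*, at 3.85 to 13.3 TPM. *ERC1* (4.12 to 6.23), *PCLO* (2.79 to 6.29) and *ERC2* (3.82 to 4.17) overlapped with their neighbours in this order, and *ERC2* lay above *BSN* (0.97 to 1.83). *BSN*, *SYN1* (0.84 to 1.67) and *RIMS1* (0.54 to 1.24) overlapped at the bottom. In the IGF2BP3 IP the first 4 places were the same, but *STX1A* (16.2 to 18.7) overlapped with *UNC13A* (6.46 to 16.7). There *PCLO* (5.20 to 10.8) overlapped with *ERC1* (5.78 to 7.24) and lay above *ERC2* (2.16 to 4.72), and *SYN1* lay above *BSN*. Within the paralog pairs, *RIMS2* was far above *RIMS1*, *PCLO* above *BSN* and *ERC1* above *ERC2* in every library of both groups. *ERC1* and *ERC2* were closest in IgG IP replicate 2, at 4.12 and 3.82 TPM.

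**Figure D4:**
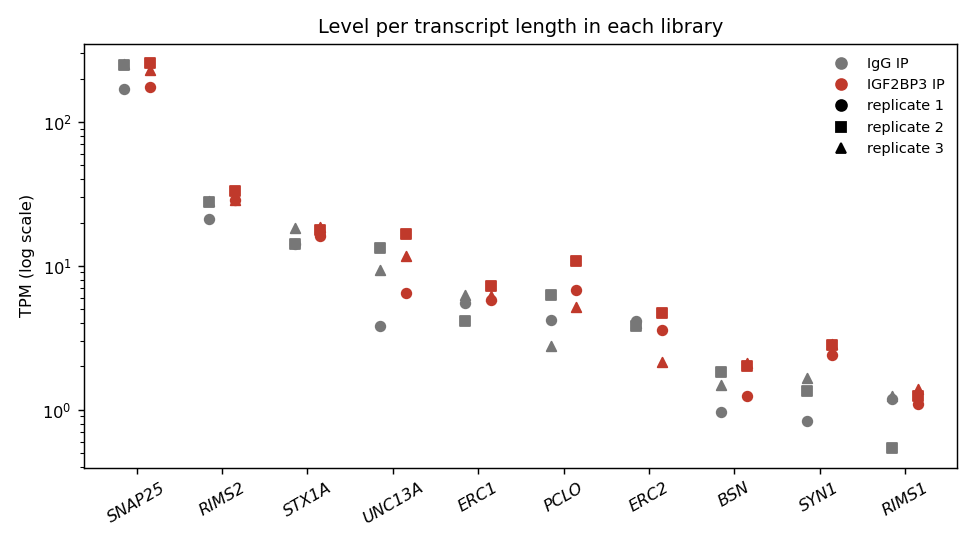
TPM of the 10 genes on a log scale in the IgG IP (gray) and IGF2BP3 IP (red) libraries, in the order of their median in the IgG IP; symbols mark the replicate. *SNAP25* lies between 169 and 256 TPM in the 6 libraries, and *BSN*, *SYN1* and *RIMS1* lie below 3 TPM in each.

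The TPM values also set limits to the comparison of the IPs. *PCLO* had 4.19, 6.29 and 2.79 TPM in the IgG IP, against 6.78, 10.8 and 5.20 in the IGF2BP3 IP. It was higher in each same-numbered pair, but the groups overlapped, unlike in the counts. *BSN* had 0.97, 1.83 and 1.49 TPM against 1.25, 2 and 2.12, again with overlapping groups, and its log2 difference on the log2(TPM + 1) scale was 0.20. *SYN1*, on few counts, had 0.84, 1.35 and 1.67 TPM against 2.41, 2.83 and 2.86, with no overlap, and 0.71 on that scale. *SNAP25* was at -0.01 on it. *RIMS2*, interleaved in the counts, had each TPM value of the IGF2BP3 IP (28.6, 33.3 and 28.8) above those of the IgG IP (21.3, 27.99 and 28.3), and a difference of 0.22. On this scale the median of all tested genes was at 0.11. A pseudocount understates the change of genes at such low levels, but with one of 0.1 in place of 1 *BSN* was still at 0.31, against 0.73 from the counts, and the cause of this gap was not tested.

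Apart from *ARAF*, few counts lay on annotated genes that share exons with the members. The exons of *PCLO*, *BSN*, *RIMS1*, *UNC13A* and *STX1A* overlap no exon of another annotated gene. *SYN1* shares 928 bases on its own strand with a gene that has 0 counts in the 6 libraries, and 8 bases with *ARAF* on the other strand, which had 111 to 214 counts and a log2 fold change of 0.42. *SYN1* itself had only 8 to 26 counts, and whether reads of *ARAF* were counted on it was not tested. *ERC1* shares 100 bases with an antisense gene of 37 to 55 counts and a log2 fold change of 0.04. Genes that share exons with *RIMS2*, *ERC2* and *SNAP25* held at most 7 counts in a library.

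A further 91 genes of the presynaptic release machinery, listed by role, were read beside the members, and 78 of them were tested. Of the 78, 60 had a log2 fold change above 0 and 18 below it, against 7091 and 7416 of the 14507 tested genes. The median was 0.15 over the 78 and -0.01 over all tested genes. Fold changes also moved with transcript length and GC content across genes, and whether this accounts for the difference was not tested. In the edgeR fit 1 was called higher (1.16% of all tested genes) and 0 lower. All IGF2BP3 IP libraries exceeded all IgG IP libraries for 16 of the 78 (12% of all tested genes) and below for 2 (8.69%). By role, the median log2 fold change was 0.16 for the other 14 active zone scaffold genes, 0.23 for 12 priming genes, 0.02 for 16 genes of the SNAREs and their disassembly, 0.19 for 12 vesicle membrane and tether genes, 0.23 for 7 calcium sensors, 0.47 for 3 calcium channels, 0.28 for 6 adhesion genes and 0.17 for 8 endocytosis genes.

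*PTPRS*, a receptor tyrosine phosphatase of the LAR family that binds synaptic adhesion partners and the liprins of the active zone, was the gene called (chromosome 19 from 5158495 to 5340812, minus strand). Its normalized CPM were 41.0, 44.2 and 43.7 in the IgG IP, against 85.3, 80.1 and 76.6 in the IGF2BP3 IP, with no overlap. The log2 fold change was 0.91 with a standard error of 0.09 (adjusted p = 0.00503, edgeR's quasi-likelihood test, higher in 3 of 3 pairs). The gene list was chosen with earlier results of these data known, so this p-value describes the fit and is no independent test. The call was lost without IGF2BP3 IP replicate 2 or IgG IP replicate 3, at log2 fold changes of 0.91 and 0.92 and adjusted p-values of 0.0521 and 0.0525 from the same edgeR test. It was also lost with limma-trend on log2(TPM + 1), at 0.89 (adjusted p = 0.565). Over all tested genes, 0 were called higher without IGF2BP3 IP replicate 2, 7 without IgG IP replicate 3 and 0 with limma-trend. With the GC correction *PTPRS* was at 0.71 and still called.

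With the replicate block in edgeR, 6 of these 78 genes were called higher, where 3.56% of all tested genes were. Beside *PTPRS* they included *SYT7*, a calcium sensor (0.87), and *RAB3B*, a vesicle GTPase that RIMs bind (0.71). They also included *CPLX1*, which binds the SNARE complex (0.73), and *RPH3A*, a RAB3 effector (0.95). The values in brackets are log2 fold changes of that fit. These 4 genes were named after their values were seen. Of the genes with the highest mean TPM in the IgG IP by role, *LIN7C* (log2 fold change -0.14), *SNAP23* (0.01), *SYPL1* (-0.05), *SYT1* (0.08), *CACNA1A* (0.13) and *SH3GL2* (0.02) were not called.

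**Figure D5:**
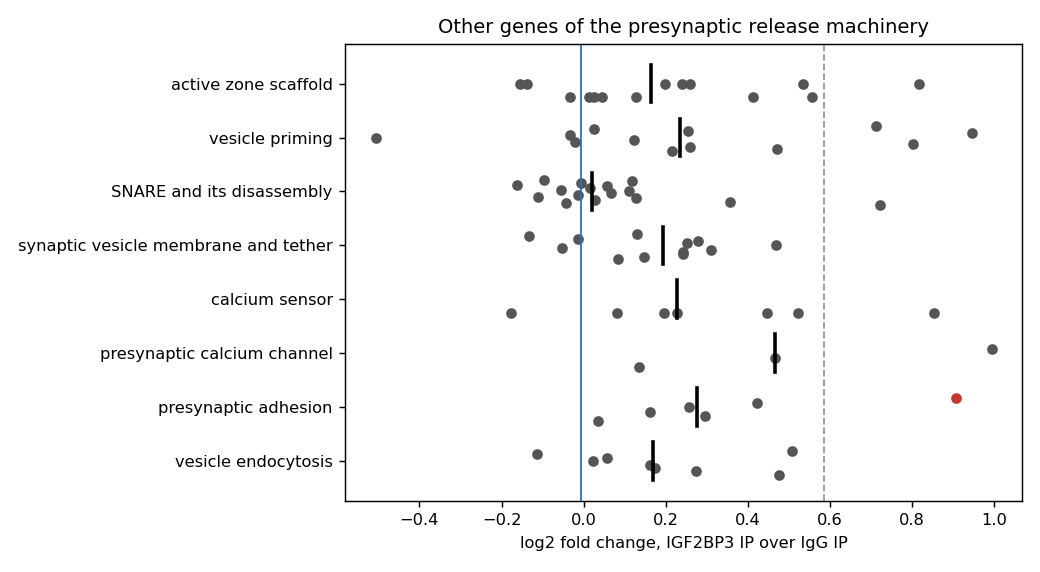
Log2 fold change, IGF2BP3 IP over IgG IP, of the 78 tested genes of the presynaptic release machinery beside the 10 members, by role (vertical scatter within a role has no meaning). Black bars are medians per role, the blue line the median of all tested genes and the dashed line a 1.5-fold change; *PTPRS*, called higher, is red at 0.91.

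Across the 6 libraries, the normalized CPM of *SYN1* followed those of *PCLO* most closely among the members, with Pearson's r of 0.96 on the log2 scale. For *ERC1* and *BSN* it was 0.68 and 0.67, for *STX1A* 0.54, for *RIMS1* 0.38, for *RIMS2* 0.35, for *ERC2* 0.06, for *UNC13A* 0.04 and for *SNAP25* -0.75. The tested genes most like *PCLO* by this measure were *TPTEP1*, *MPV17L2* and *AC007342.4*, with r of 0.99 each. These correlations are descriptions over 6 points that hold the difference between the groups as well as that between replicates.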

How the data were processed

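The 3 IgG IP libraries and 3 IGF2BP3 IP libraries of WaGa cells were grouped by their titles. The authors aligned 150 bp paired reads to GRCh38 with STAR 2.7.9a and used RSEM with GENCODE version 37. The deposited values are raw counts, TPM and FPKM of each gene; the program behind the counts and its use of strand are not given in the sources used here. The members and the gene lists were chosen with earlier results of these data known.

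Counts were filtered with filterByExpr, scaled with TMM and tested over all genes in edgeR 4.0.16 under R 4.3.3 (glmQLFTest), condition being the only term. Standard errors come from dividing a log2 fold change by the root of its F statistic. Calls needed a 1.5-fold difference or more, and p under 0.05 after Benjamini-Hochberg adjustment. The replicate numbers of the titles were taken as pairs. Same-numbered libraries deviated together from their group means (correlations across genes of 0.60, 0.32 and 0.26), but IgG IP and IGF2BP3 IP replicates 2 and 3 also correlated crosswise (0.30 and 0.31). The correlations thus set replicate 1 apart in both groups and do not show that replicates 2 and 3 are paired by number. Alternatives were DESeq2 1.42.0, RLE or no scaling, other filters, the replicate block, replicate 1 as a term, per-library loess (span 0.5) on GC content or on effective length from counts and FPKM, limma-trend (limma 3.58.1) on TPM, and leaving out each library. The fits were tested on simulated data. Transcripts came from GENCODE version 44 on GRCh38. Genes named were the members, list genes called, the gene of highest mean TPM in the IgG IP for each role (for some roles not reported here) and the 3 genes most like *PCLO*.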

Additional observations from a re-analysis of the deposited data

How the results depend on the processing

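Against 1 member, 1 other presynaptic gene and 169 of all tested genes called higher, and 0 lower in each, the calls moved as follows. DESeq2, with which the study made its list, gave 2 members, 4 other genes and 281 of all. Without a filter the numbers were 2, 5 and 359, with 1 of all lower. The replicate block gave 2, 6 and 517 with 15 lower in edgeR, and 2, 5 and 321 with 1 lower in DESeq2. Replicate 1 as a term gave 2, 6 and 537 with 23 lower. The GC correction gave 79 of all, and with the replicate block 4 other genes and 275 of all, with 35 lower. The length correction gave 0 members and 2 other genes, and with the replicate block 1 member, 4 other genes and 415 of all, with 21 lower. limma-trend gave 0 members, 0 other genes and 0 of all on log2(TPM + 1) and on log2(TPM + 0.1), where 476 and 617 of all were at least 1.5-fold higher at an unadjusted p under 0.05. Leaving out 1 library gave 0 to 1 members, 0 to 4 other genes and 0 to 244 of all; the lowest was without IGF2BP3 IP replicate 2, where edgeR's unadjusted p was under 0.05 for 473 genes at least 1.5-fold higher. Among the members the replicate block brought the call of *BSN* in edgeR and, with the length correction, that of *PCLO*, and changed no other. The cause of these shifts was not tested.

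*PCLO*, *BSN*, *ERC1*, *SYN1* and *SNAP25* kept their direction under the alternatives run for them; *SYN1* could not be tested at 10 counts in every library. *RIMS2*, at 0.01, changed sign with DESeq2 (-0.00080), RLE (-0.0032), no filter (-0.0026), the replicate block in DESeq2 (-0.0028), and the length correction (-0.11, and -0.11 with the block). *STX1A* was at -0.031 with the GC correction and at -0.036 with the block added. With 1 library left out, *RIMS1* ran from -0.0046 to 0.45, *RIMS2* from -0.046 to 0.053, *ERC2* from -0.39 to 0.10 and *UNC13A* from -0.013 to 0.43. *SYN1*, at 8 to 26 counts, and *RIMS1*, at 28 to 54, had the fewest counts of the members.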
